A study of Mus musculus with 62 samples.

Results

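The genes examined were 9 transcription factor genes that pattern the limb or mark muscle precursors: Pitx1, Tbx4, Tbx5, Tbx3, Meis1, Pax3, Pax7, Lbx1 and Pitx3. They were chosen by name, and a peak belonged to a gene when the deposited annotation gave that gene as the one with the nearest transcription start site (TSS). By this rule 482 of 596282 peaks, in 16 lists of H3K27ac and H3K4me2 peaks, belonged to the 9 of 19220 named genes. H3K27ac (acetylated lysine 27 of histone 3) marks active enhancers and promoters, and H3K4me2 (dimethylated lysine 4 of histone 3) marks active and poised ones. All mice were male C57BL/6 young adults. The 4 untreated wild-type muscles were extensor digitorum longus (EDL), quadriceps femoris (Quad) and soleus (Sol), all from the hindlimb, and diaphragm (Dia), which is not a limb muscle. The other 4 groups were Quad of sedentary wild-type mice (Sed), of wild-type mice with free access to running wheels for several weeks (Ex), and of sedentary mice with a Pgc1a transgene driven in muscle fibers by the muscle creatine kinase promoter (mTg), with sedentary wild-type littermates (Wt). Each group had 2 libraries per mark. Every library came from whole muscle, a Quad library from 1 animal and an EDL, Sol or Dia library from several pooled animals, so fewer cells of a type and less of a mark per cell cannot be told apart.

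Pitx1 and Tbx4 specify the hindlimb, and Tbx5 the forelimb and the heart. Tbx3 patterns the limb margin, and Meis1 marks the proximal limb. Pax3 and its target Lbx1 act in the precursors that migrate from the somites into the limbs and the diaphragm, Pax7 maintains satellite cells, the stem cells of adult muscle, and Pitx3 is expressed in differentiating muscle. Several of these genes are known to stay active in adult connective tissue of the limb as well as in muscle cells.

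Depth ranged from 6.41 to 24.2 M tags over the 32 histone libraries (median 19.5 M), and the library of lowest depth was labelled mTg H3K4me2. For Dia replicate 2, the headers gave 19.2 M for H3K27ac and 18.2 M for H3K4me2. The paper's unique read counts give these values the other way round, which was not resolved. Of 8 fiber markers, Acta1, Ckm, Myh4, Myh1 and Myh2 had H3K27ac peaks in all 8 groups. Among the rest, Myh7 was listed in Sol and Dia only. Tnnt3 had no listed peak in EDL, Quad and Sed, and Tnnt1 none in EDL and mTg. The targeted gene of mTg, Ppargc1a (Pgc1a), went against 1 pair of labels. In H3K27ac, a peak in one of its exons (exon 2) was listed in mTg, at log2 levels of 4.03 and 3.30, and in none of the other groups. In H3K4me2, an exon peak (exon 8, at 5.22 and 5.50) was listed in the libraries labelled Wt and in no other group, including those labelled mTg. The H3K4me2 libraries of this pair are therefore named by their labels only, and no direction is drawn between them.

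The sequences below are those of the open chromatin in Quad at Pitx1, the hindlimb gene, and of the pair of 0.5-kb H3K27ac regions that were called in Dia and in no limb group. Coordinates are mm10 and letters are the plus strand of the reference genome of that build, with motif matches in capitals. The 4 Pitx1 sites were peaks of control Quad ATAC-seq (transposase-accessible chromatin) inside Pitx1 peaks of a histone mark, all intergenic and upstream of the TSS.
Pitx1 site chr13:55850734-55850928: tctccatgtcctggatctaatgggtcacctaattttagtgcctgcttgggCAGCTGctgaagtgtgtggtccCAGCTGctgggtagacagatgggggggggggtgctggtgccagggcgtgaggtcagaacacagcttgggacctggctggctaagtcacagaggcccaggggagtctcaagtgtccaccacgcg
Pitx1 site chr13:55917462-55917656: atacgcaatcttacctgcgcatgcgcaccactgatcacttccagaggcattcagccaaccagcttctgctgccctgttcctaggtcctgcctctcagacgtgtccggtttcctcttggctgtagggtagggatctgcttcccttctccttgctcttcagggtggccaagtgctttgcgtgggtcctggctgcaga
Pitx1 site chr13:55967282-55967476: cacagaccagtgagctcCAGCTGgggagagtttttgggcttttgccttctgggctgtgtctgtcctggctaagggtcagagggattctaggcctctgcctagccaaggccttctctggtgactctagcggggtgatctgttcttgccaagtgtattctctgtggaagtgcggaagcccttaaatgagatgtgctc
Pitx1 site chr13:55976945-55977139: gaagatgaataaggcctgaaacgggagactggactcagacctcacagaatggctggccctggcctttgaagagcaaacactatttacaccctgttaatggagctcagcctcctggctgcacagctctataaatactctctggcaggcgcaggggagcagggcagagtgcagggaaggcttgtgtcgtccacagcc
Meis1, Dia region, central 300 bases, chr11:18871423-18871722: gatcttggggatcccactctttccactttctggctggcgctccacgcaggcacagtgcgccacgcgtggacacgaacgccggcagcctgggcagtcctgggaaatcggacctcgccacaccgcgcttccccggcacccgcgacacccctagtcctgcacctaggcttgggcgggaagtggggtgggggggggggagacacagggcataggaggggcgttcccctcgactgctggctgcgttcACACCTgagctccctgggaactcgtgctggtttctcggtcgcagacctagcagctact
Pax3, Dia region, central 300 bases, chr1:78185720-78186019: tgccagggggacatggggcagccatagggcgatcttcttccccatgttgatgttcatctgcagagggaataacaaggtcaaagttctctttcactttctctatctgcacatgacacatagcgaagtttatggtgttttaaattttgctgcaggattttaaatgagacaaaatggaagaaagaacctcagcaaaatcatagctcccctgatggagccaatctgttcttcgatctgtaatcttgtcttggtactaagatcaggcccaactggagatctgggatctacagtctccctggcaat
Capitals mark the E-box CAGCTG, a site type bound by myogenic factors, and the T-box half-site AGGTGT (read as ACACCT on the other strand). The first Pitx1 site held the E-box at 2 places and the third at 1. The Meis1 region held 1 T-box half-site, and the Pax3 region held none of the motifs searched.

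Signal was compared as a share of listed signal, the sum of the linear levels of a gene's peaks per 100,000 of the sum over all peaks of the list, in each library. A gene was called when the 2 Dia libraries did not overlap the 6 libraries of EDL, Quad and Sol and the means differed by over 2-fold. For this rule a gene with no listed peak was set to 0, although its signal is only known to be under the listing threshold, and the share rises with the length called as well as with the level. In H3K27ac, Dia was higher at 3 genes (Pax3, Meis1 and Tbx3) and lower at 1 (Pitx1), and 5 were not called. Over all 15880 genes with a peak in these lists, 9.0% were higher in Dia and 7.42% lower. In H3K4me2, Pax3 was higher and Pitx1 lower, beside 3.94% and 5.18% of 17880 genes. The peaks of each muscle were called and normalized separately, so these calls describe the separation of libraries and no test was run.

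**Figure D1:**
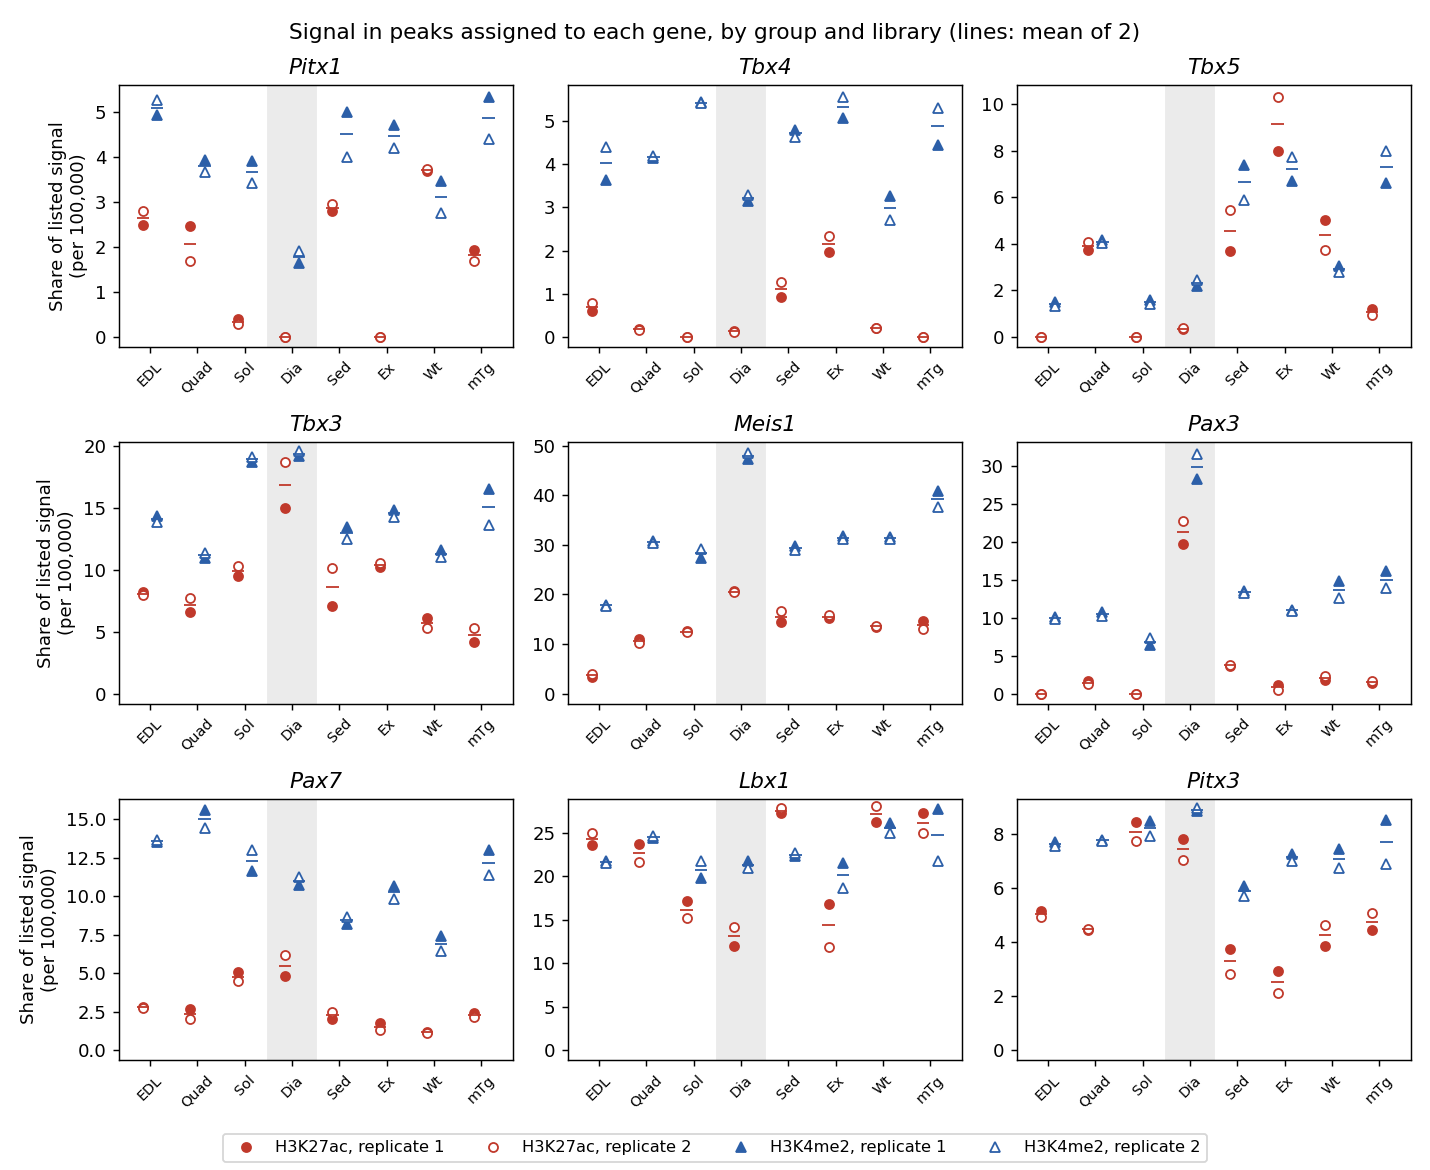
Share of listed signal (per 100,000, y axis) of each gene in the 8 groups (x axis), with circles for H3K27ac, triangles for H3K4me2, filled and open symbols for replicates 1 and 2, and lines for means. Dia (grey) stood above the other groups at Pax3 in both marks, and Pitx1 had no listed H3K27ac signal in Dia and Ex.

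At Pitx1, which directs hindlimb identity, H3K27ac was listed in the 3 hindlimb muscles and not in Dia. The share was 2.49 and 2.80 in the EDL libraries, 2.45 and 1.69 in Quad, and 0.384 and 0.278 in Sol. No Pitx1 peak was listed in Dia, which does not mean that the signal there was 0. Sol thus stood well below EDL and Quad, without overlap. Sed had 2.78 and 2.95, Wt 3.68 and 3.74, and mTg 1.93 and 1.69, while Ex had no listed peak. With an adjusted p-value under 0.001 for peaks, Pitx1 was no longer called.

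In H3K4me2, Pitx1 peaks were listed in all 8 groups. The share was 1.63 and 1.90 in Dia, and ranged from 3.43 to 5.25 over the 6 libraries of EDL, Quad and Sol, a mean 2.37-fold above Dia. The Dia libraries lay below all limb libraries. The Ex libraries, with 4.71 and 4.20, overlapped the Sed libraries, with 4.995 and 4.003.

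The Pitx1 peaks lay within the gene and in intergenic regions as far as -145.9 kb from the TSS. The farthest H3K27ac region (chr13:55976238-55977659, -145.5 kb) was called in EDL, Quad and Sol and not in Dia, and also in Sed, Wt and mTg. Its level per kb ranked from the 6.69th percentile of the list in Sol to the 59.9th in Wt. It was not called in Ex. The same region had an H3K4me2 peak in all 8 groups, Dia included, where the log2 level per kb of Dia differed from that of EDL by 0.24, from Quad by -0.16 and from Sol by 0.63, each less than 2-fold. The fourth Pitx1 sequence above lies in this region. The regions at -85.7 kb and -136.0 kb were called in EDL and Quad and not in Sol or Dia, and they hold the second and the third sequence.

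**Figure D2:**
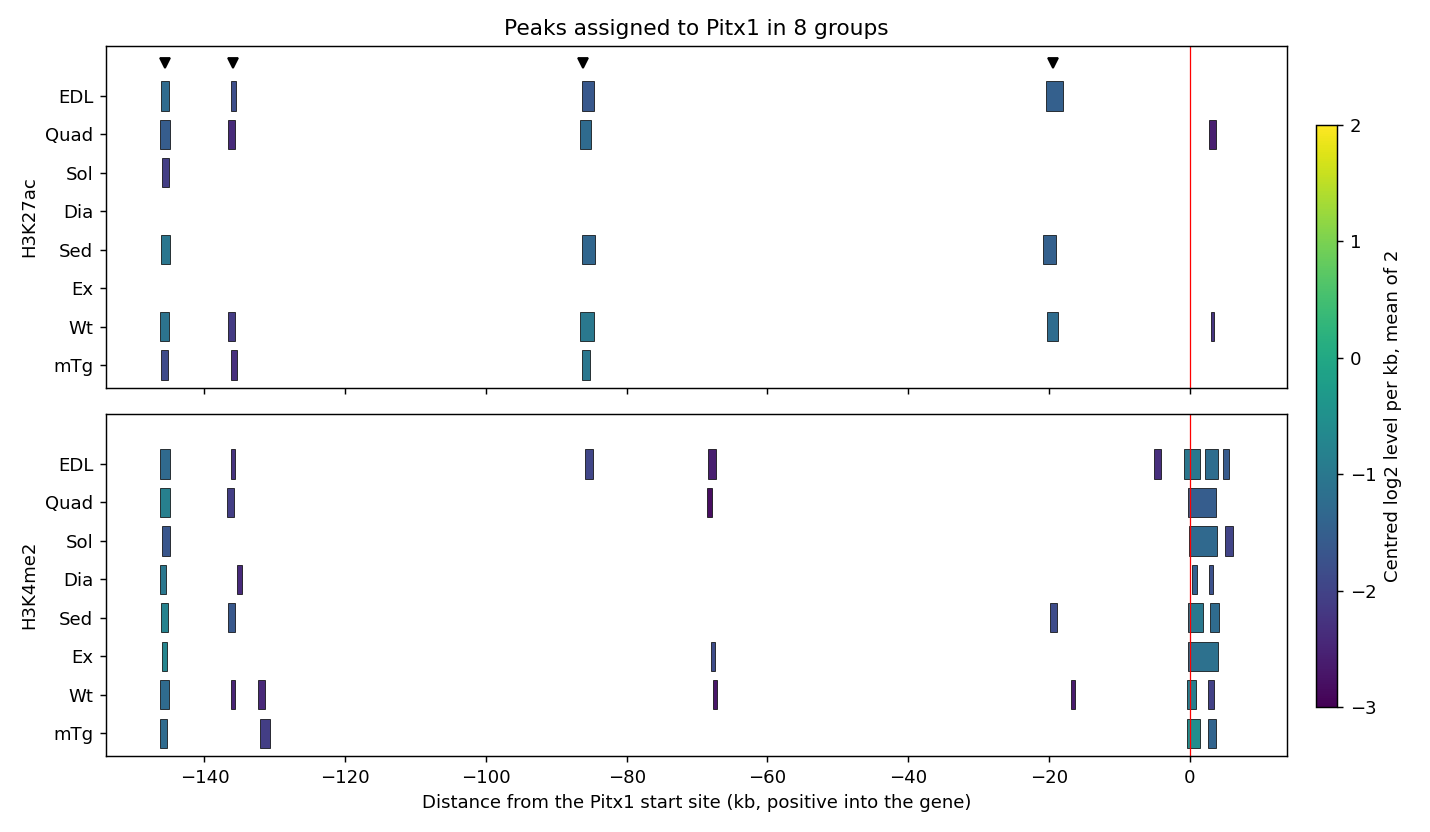
Peaks assigned to Pitx1 by distance from its TSS (kb, x axis) in the 8 groups (rows) for H3K27ac (top) and H3K4me2 (bottom), colored by centred log2 level per kb, with black triangles at control Quad ATAC sites. The H3K27ac rows of Dia and Ex are empty, whereas every group has an H3K4me2 peak at -145.6 kb.

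Tbx4, the other hindlimb T-box gene, had at most 3 H3K27ac peaks in a group. Its share was 0.135 and 0.111 in Dia, 0.607 and 0.777 in EDL and 0.190 and 0.149 in Quad, and no peak was listed in Sol or mTg. The Dia libraries were thus below those of EDL and Quad, and Sol could not be placed against Dia. The highest share was in Ex (1.98 and 2.35), above Sed (0.927 and 1.27). Its H3K27ac peak of highest level per kb ranked from the 1.38th percentile of the list in Dia to the 53.5th in Ex. In H3K4me2 Tbx4 was listed in every group, with 3.14 and 3.29 in Dia and 3.63 to 5.44 in the limb libraries. The 2 Dia libraries lay below all 6 of the limb, but by 1.41-fold.

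Tbx5, the forelimb gene, had listed H3K27ac peaks in Quad and in neither of the other hindlimb muscles. The share was 3.73 and 4.07 in Quad and 0.311 and 0.354 in Dia, and no peak was listed in EDL or Sol. Quad, whose 2 peaks covered 10.2 kb against 1.23 kb for the 1 peak of Dia, lay above Dia in both libraries. EDL and Sol could not be placed against Dia, and the gene was not called. All other Quad groups had Tbx5 peaks, with 3.70 and 5.44 in Sed, 8.0 and 10.3 in Ex, 5.01 and 3.72 in Wt and 1.203 and 0.954 in mTg. Ex was the highest and mTg the lowest of the Quad groups, in both libraries. Most of this signal was a domain over the promoter and first introns, which reached 9.38 kb in Ex (chr5:119830840-119840222), 8.46 kb in Quad and 1.23 kb in Dia. Its levels in Ex were 9.23 and 9.36 (log2) and in Sed, over 7.25 kb, 8.03 and 8.66.

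H3K4me2 at Tbx5 was listed in all groups, at 2.17 and 2.43 in Dia and 1.34 to 4.15 in the limb libraries, which overlapped. An H3K4me2 region 32.3 kb into the gene (chr5:119866426-119867567) was called in EDL, Quad and Sol and not in Dia, nor in Sed, Ex, or the libraries labelled Wt and mTg. Its Quad peak was near the floor, 0.5 kb long at log2 levels of 2.66 and 2.43, the 0.53rd percentile of the list.

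**Figure D3:**
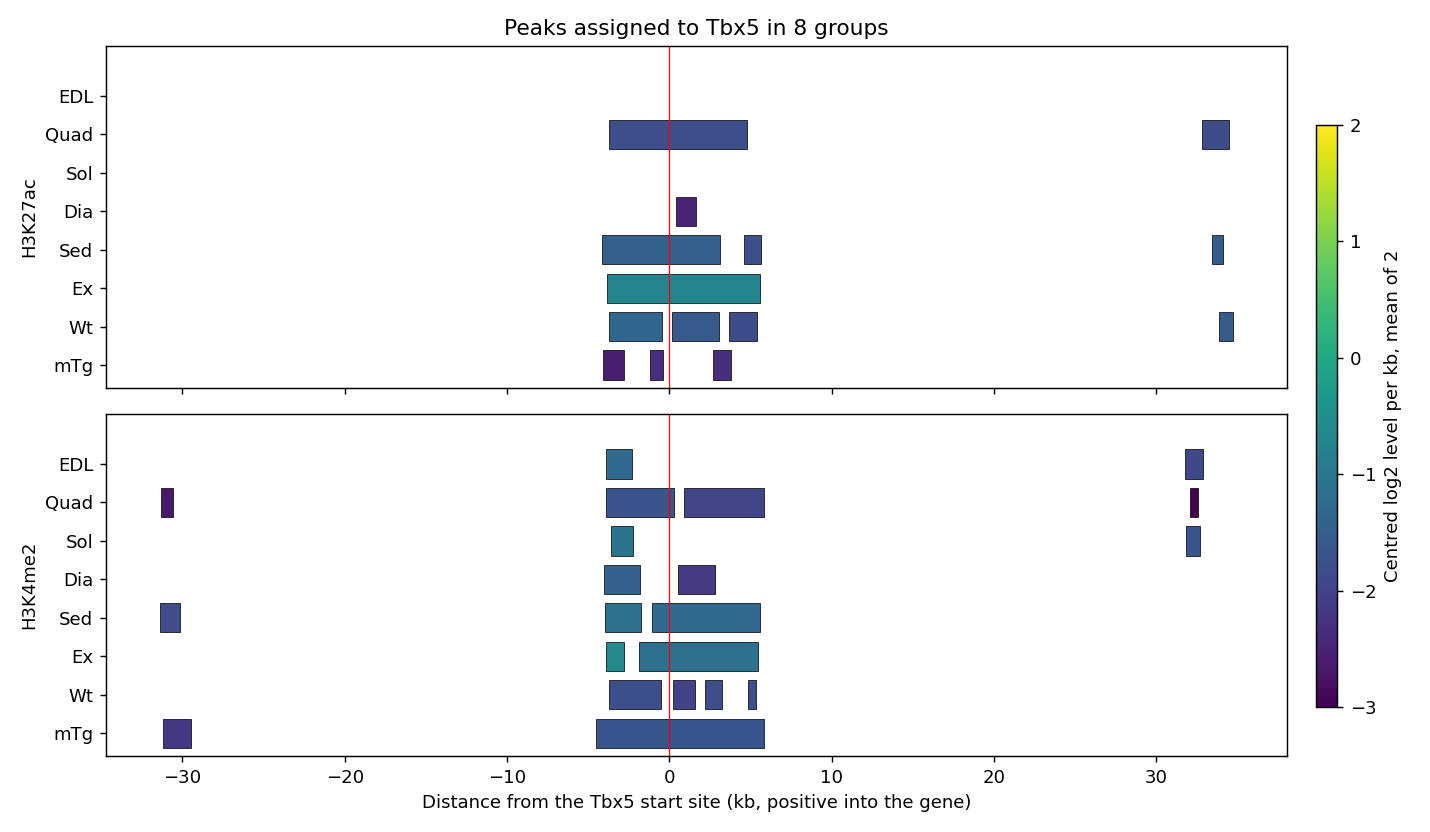
Peaks assigned to Tbx5 by distance from its TSS (kb, x axis) in the 8 groups (rows) for H3K27ac (top) and H3K4me2 (bottom), colored by centred log2 level per kb. H3K27ac forms a broad domain at the start of the gene in Ex, Sed and Quad, a single 1.23-kb peak in Dia and no peak in EDL or Sol.

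Among the Quad groups, the fibroblast markers (Pdgfra, Col1a1, Col3a1, Dcn, Lum, Tcf7l2 and Postn) were, like Tbx5, highest in Ex and lowest in mTg. Their summed H3K27ac share was 133 and 163 in Ex, 58.8 and 73.8 in Sed, 85.4 and 89.5 in Quad, 98.3 and 79.4 in Wt, and 44.3 and 47.1 in mTg, with 6 or 7 of the 7 genes listed in each. It was 73.3 and 68.0 in Dia, 53.3 and 53.3 in EDL and 59.998 and 69.0 in Sol. The other groups matched Tbx5 only in part. EDL lay below Sed, Quad and Wt in this sum and had no listed Tbx5 peak. Sed lay below Quad and Wt in this sum but overlapped both at Tbx5. Dia lay within the range of Sed in this sum, with a far lower Tbx5 share. The part of these markers in the Tbx5 and Tbx4 differences was not tested. Over the means of the 8 groups, the genes with an H3K27ac profile most like that of Tbx5, of 16880 genes, were Elmod3, Enpep and Tcf7l2, with Pearson correlations of 0.978, 0.973 and 0.972. Tcf7l2 is itself one of the fibroblast markers summed above, so both comparisons share its values. These correlations rest on 8 groups of which 5 are Quad, and are descriptions.

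Tbx3, which patterns the limb margins, had broad H3K27ac over its gene in every group. The share was 14.96 and 18.7 in Dia against 8.18 and 7.92 in EDL, 6.57 and 7.72 in Quad, and 9.47 and 10.3 in Sol. The Dia libraries lay above all limb libraries, by 2.01-fold on the means. This was just past the threshold, and the call was lost without Dia replicate 2, EDL replicate 2, or either Quad replicate. The 2 Dia peaks covered 9.87 kb against 5.42 to 6.22 kb in the limb muscles. At the main domain, the level per kb (log2, Dia minus limb) differed by 0.15 for EDL, 0.29 for Quad and -0.22 for Sol. At the smaller region at 9.3 kb, listed in Dia and Quad, the difference was 1.61. The other Quad groups ranged from 4.16 to 10.5, all below Dia, by 1.62-fold (Ex) to 3.55-fold (mTg) on the means. H3K4me2 at Tbx3 was closer, with 19.2 and 19.5 in Dia and 10.97 to 19.1 in the limb libraries, 1.32-fold apart on the means.

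Meis1, a homeobox gene of the proximal limb, was also higher in Dia. Its H3K27ac share was 20.7 and 20.5 in Dia, 3.28 and 4.04 in EDL, 11.01 and 10.3 in Quad, and 12.5 and 12.3 in Sol. Dia stood 2.31-fold above the limb mean, and EDL stood below Quad and Sol. The difference was 5.63-fold against EDL but 1.65-fold against Sol and 1.94-fold against Quad. The other Quad groups were nearer to Dia, with 14.5 and 16.6 in Sed, 15.2 and 15.9 in Ex, 13.4 and 13.6 in Wt, and 14.7 and 13.1 in mTg. Dia was above each of them in both libraries, by 1.32-fold (Sed and Ex) to 1.52-fold (Wt) on the means. The 4 Dia peaks covered 20.1 kb against 2.85 to 12.6 kb in EDL, Quad and Sol. In H3K4me2 the Dia libraries (47.3 and 48.6) again lay above the limb libraries (17.7 to 30.9), by 1.87-fold, under the threshold. The main Meis1 domain in Dia was 13.7 kb long (chr11:19007465-19021194), over the TSS, at log2 levels of 10.61 and 10.70. When that domain was matched one to one with its counterpart in Sol, the levels per kb differed by -0.01 (log2, Dia minus Sol). The 0.5-kb H3K27ac region with the T-box half-site above (chr11:18871322-18871822, log2 levels of 4.30 and 4.69) lies past the 3' end of Meis1. In H3K27ac it was listed in Dia alone among the 8 groups. In H3K4me2, however, peaks over it were listed in Dia, in Quad and in the libraries labelled mTg.

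Pax3, the regulator of migrating muscle precursors, showed the clearest difference. Its H3K27ac share was 19.7 and 22.7 in Dia and 1.67 and 1.24 in Quad, and neither EDL nor Sol had a listed peak. The other Quad groups had 3.63 and 3.75 (Sed), 1.07 and 0.533 (Ex), 1.80 and 2.31 (Wt), and 1.39 and 1.59 (mTg), all well below Dia. The 6 Dia peaks covered 26.2 kb against 3.496 kb for the 3 peaks of Quad. The largest was a 10.8-kb domain from the TSS into the gene (chr1:78186688-78197483) at log2 levels of 9.50 and 9.85. The next was an 8.92-kb intronic domain 50.1 kb into the gene (chr1:78142607-78151529) at 9.54 and 9.68.

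These were broad rather than tall. The highest level per kb of a Pax3 peak in Dia ranked at the 62.9th percentile of the Dia list. In Quad, the peaks at 23.5 and 14.6 kb were also listed, and there the matched levels per kb of Dia and Quad differed by 0.42 and 0.41 (log2), under 2-fold. In H3K4me2, Pax3 had 28.2 and 31.6 in Dia and 6.37 to 10.7 in the limb libraries, whose mean Dia exceeded 3.29-fold. At 2 H3K4me2 regions in the gene, 48.6 kb and 14.7 kb from the TSS, Dia exceeded EDL by 1.39 and 1.18 (log2 level per kb).

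**Figure D4:**
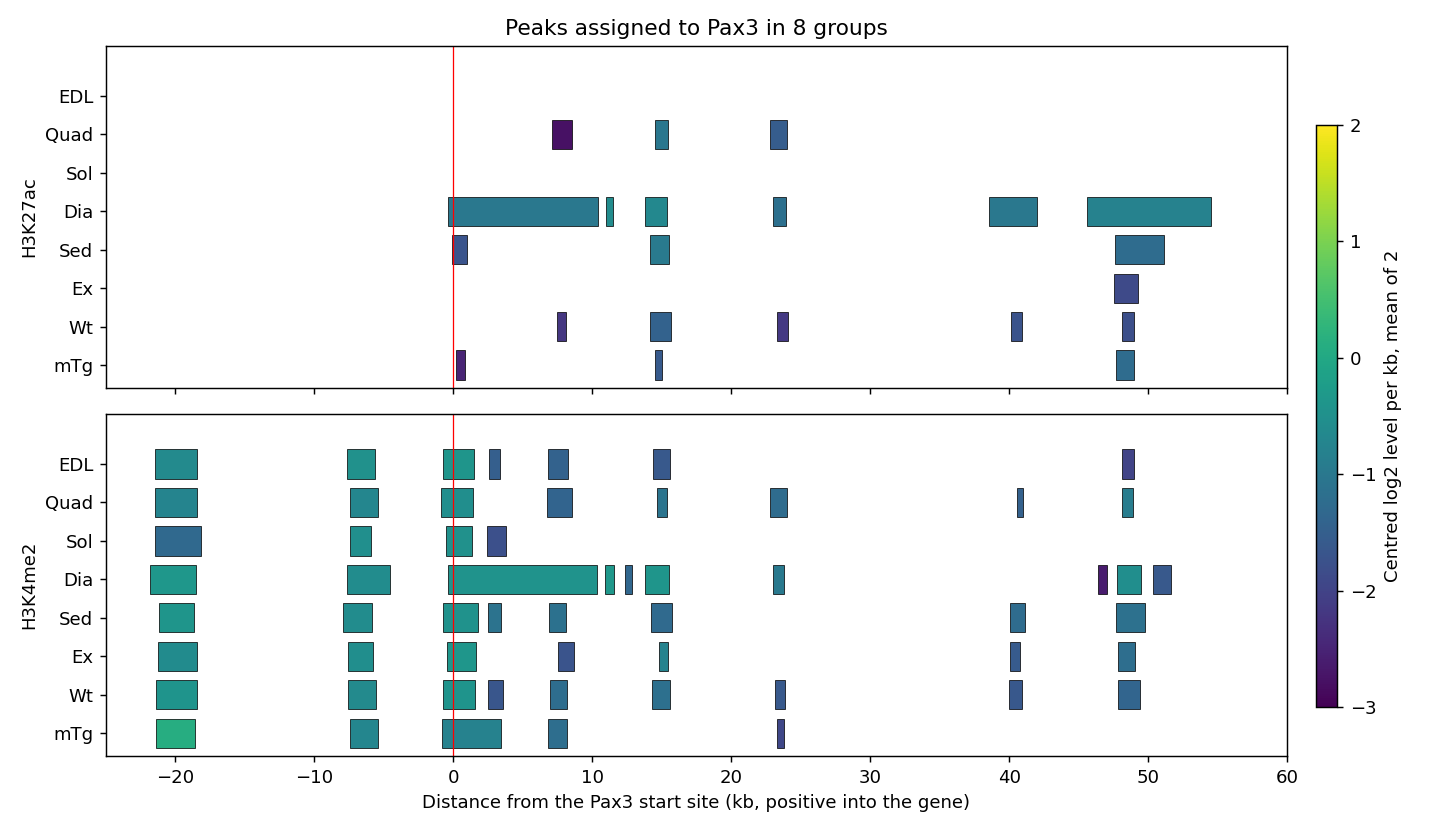
Peaks assigned to Pax3 by distance from its TSS (kb, x axis) in the 8 groups (rows) for H3K27ac (top) and H3K4me2 (bottom), colored by centred log2 level per kb; 5 of 84 peaks fall outside the map. Dia has broad H3K27ac domains at 0 to 10 kb and near 50 kb where the limb groups have short peaks or none.

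Markers of the mesothelium, the lining that covers the diaphragm, were also higher in Dia. Of Wt1, Msln, Upk3b and Krt19, all 4 had an H3K27ac peak in Dia, with a summed share of 18.2 and 14.3, against 1 or 2 of 4 in EDL, Quad and Sol, at 0.685 to 1.41. Wt1, which also belongs to the genes of the diaphragm primordium counted below, and Krt19 had no listed peak in any limb group. In Ex the 4 markers summed to 4.24 and 5.84, against 1.175 and 1.205 in Sed. Pax3 was lower in Ex than in Sed, Meis1 overlapped and Tbx3 was higher. The part of the mesothelial markers in the Pax3, Meis1 and Tbx3 differences was not tested. The satellite cell markers, of which Pax7 is one, overlapped, at 71.6 and 72.8 in Dia and 56.9 to 78.7 in EDL, Quad and Sol. Fibroblast, endothelial and adipocyte sums in Dia lay within the range of the 3 limb muscles. Muscle fiber markers summed to 142 and 149 in Dia and 97.7 to 129 in the limb libraries. Macrophage markers summed to 4.47 and 3.84 in Dia and 1.07 to 3.93 in the limb libraries, and Schwann cell markers to 1.24 and 1.82 against 1.89 to 4.98.

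The other precursor genes showed no comparable separation. Pax7, the satellite cell factor, had an H3K27ac share of 4.82 and 6.17 in Dia, 2.83 and 2.77 in EDL, 2.66 and 2.06 in Quad, and 5.09 and 4.50 in Sol. Dia and Sol overlapped, and both lay above EDL and Quad. With an adjusted p-value under 0.001 for peaks, Pax7 too was called higher in Dia. Its H3K4me2 share was 10.7 and 11.3 in Dia and 11.7 to 15.6 in the limb libraries, so that Dia lay below all limb libraries, by 1.24-fold. An H3K4me2 region 21.98 kb into Pax7 was called in EDL, Quad and Sol and not in Dia.

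Lbx1, needed for precursor migration into the limb, carried one of the stronger domains of these genes in every group. Its H3K27ac share was 12.04 and 14.2 in Dia, 23.6 and 25.0 in EDL, 23.8 and 21.6 in Quad, and 17.2 and 15.2 in Sol. The Dia libraries lay below all limb libraries, by 1.61-fold, which was under the threshold. Over the 8 lists its top peak ranked from the 80.5th percentile (Ex) to the 95.7th (Quad). H3K4me2 was alike in Dia (21.8 and 20.98) and the limb (19.8 to 24.6), with overlap. Pitx3, expressed in differentiating muscle, had H3K27ac shares of 7.83 and 7.05 in Dia and 4.47 to 8.44 in the limb libraries, and H3K4me2 shares of 8.85 and 8.98 against 7.57 to 8.51. Its top H3K4me2 peak, at the TSS, ranked between the 84.8th and 99.9th percentile of every list.

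Presence of regions was read from the lists of the 4 muscles merged at an overlap of at least 1 bp. Of 34 H3K27ac regions of the 9 genes, 4 (11.8%) were called in Dia and in no limb muscle, beside 6.31% of all 51592 regions, and 1 (2.94%), at Pitx1, in all 3 limb muscles without Dia, beside 4.92%. Of the 4 Dia regions, 3 belonged to Pax3 and 1 to Meis1, and 8 of the 34 (23.5%) were called in all 4 muscles, beside 37.4% of all regions. Of 58 H3K4me2 regions, 8 (13.8%) were called in Dia alone, beside 3.90% of 56763 regions, and with an adjusted p-value under 0.001 for peaks this count fell to 1. Another 2 (3.45%) were called in all limb muscles without Dia, beside 5.71%, and 21 (36.2%) in all 4 muscles, beside 39.6%. The 8 regions of Dia alone were 5 at Pax3, 2 at Meis1 and 1 at Pitx1, a 0.747-kb peak at -135.1 kb. Some lay close to regions of limb muscles. The Pitx1 peak (chr13:55966106-55966853) ended shortly before a region of EDL and Quad (chr13:55967016-55968172). A Pax3 region (chr1:78185600-78186231) ended shortly before one of all 4 muscles (chr1:78186823-78198021). With overlap as the rule, such neighbours count as Dia alone. Regions of a gene are neighbours and not independent.

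When Sed, Ex, Wt and mTg were added to the limb muscles, the Dia regions of H3K27ac fell to 2, the 0.5-kb regions of Meis1 and Pax3 whose sequences are given above, and the limb region at Pitx1 was lost because Ex did not list it. The 8.92-kb Pax3 domain of Dia was overlapped by shorter peaks in all 4 of these Quad groups. The 0.5-kb Pax3 region (chr1:78185619-78186119) lay close beside the 10.8-kb Pax3 domain (chr1:78186688-78197483), which overlapped peaks of Quad, Sed, Wt and mTg. All 8 H3K4me2 regions stayed without a limb peak.

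Where a region was matched one to one between Dia and a limb muscle, at a reciprocal overlap of at least 50%, levels were mostly close. In H3K27ac, 3 of 9 matched regions differed by over 2-fold between Dia and Quad without overlap of libraries, beside 4.20% of all matched regions. Dia was lower at -7.1 kb of Lbx1, by 1.77 on the log2 scale (centred levels per kb of -2.31 and -3.22 against -1.15 and -0.84). It was lower at 35.3 kb of Pax7, by 1.04, and higher at 9.3 kb of Tbx3, by 1.61. None of 5 regions was over 2-fold apart between Dia and EDL, beside 3.09%, or of 7 between Dia and Sol, beside 1.64%. In H3K4me2 the count was 2 of 20 for EDL (both at Pax3, above), beside 0.687%, and 0 of 18 for Quad and 0 of 17 for Sol, beside 1.55% and 0.439%. The median difference over the matched H3K27ac regions was -0.06 for EDL, 0.32 for Quad and -0.08 for Sol, beside 0.02, 0.04 and 0.00 over all matched regions.

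Exercise was read from the authors' lists of regions whose H3K27ac differed between Ex and Sed. The list of lower acetylation in Ex held 6 regions of these genes, at Pitx1 (3), Pax3 (2) and Lbx1 (1), out of 26 merged Sed and Ex regions (23.1%), beside 5.43% of all 42011. The list of higher acetylation held none, beside 0.909%. At the 11.9-kb Lbx1 domain (chr19:45229125-45241002) the log2 levels were 10.36 and 10.03 in Ex and 11.04 and 10.98 in Sed. They fell by 0.81 ± 0.21 (SE), with an adjusted p of 0.000477 in limma. At the Pitx1 region at -145.6 kb, Ex had 5.18 and 5.18 and Sed 5.90 and 5.88. The difference was -0.71 ± 0.21, with an adjusted p of 0.0016 in limma. The other 2 Pitx1 regions, at -85.5 kb and -19.9 kb, fell by 0.59 and 0.71. Pax3 fell by 0.71 at 49.3 kb and by 0.59 at 14.8 kb, with adjusted p in limma of 0.0016 and 0.0067.

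In all 6 regions both Ex libraries lay below both Sed libraries. The authors selected these regions for differing, and 99.7% of the 2280 regions of the list passed the same test, so it is no independent evidence of the direction. The changes were near the list's median of -0.76. The calls depended on the Ex libraries, since 4 of the 6 passed without Ex replicate 1 and 2, both at Pitx1, without Ex replicate 2. The loss ran through the exercise lists, where 2655 regions of both directions passed with all libraries, 2241 without Ex replicate 1 and 1562 without Ex replicate 2. Satellite cell markers were also lower in Ex (41.1 and 37.5) than in Sed (59.5 and 52.6). Of these, Myf5 was listed in Sed and not in Ex, and Calcr in no group. Muscle fiber markers were lower too (63.2 and 53.5 against 102 and 86.5), while fibroblast markers were higher, as above. Endothelial markers (63.4 and 62.7 against 45.1 and 43.9) and macrophage markers (5.50 and 7.22 against 2.25 and 2.49) were higher in Ex as well, and so were those of adipocytes (17.8 and 22.1 against 13.9 and 14.9). Schwann cell markers had 1 of 3 genes listed in Ex (2.05 and 2.75) and none in Sed. From qPCR of immune, vascular, satellite cell and myogenic marker RNA, the authors reported an unchanged cell composition in Ex. The part of the markers summed here in these differences was not tested.

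**Figure D5:**
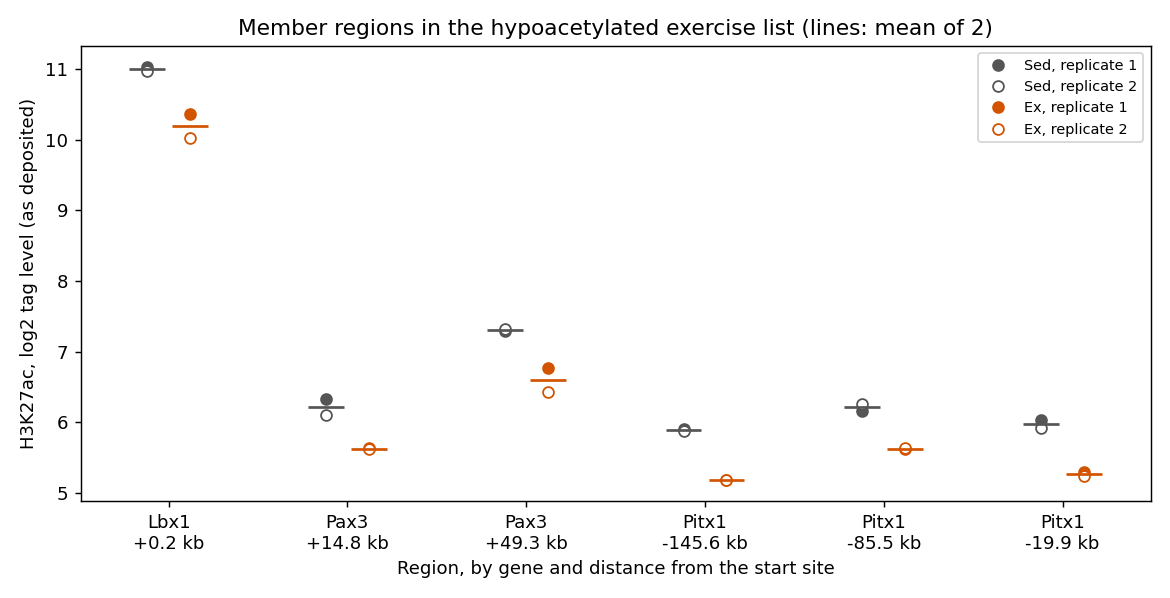
Deposited log2 H3K27ac tag levels (y axis) of the 6 regions of Pitx1, Pax3 and Lbx1 in the list of lower acetylation after exercise (x axis, with distance from the TSS), for Sed (grey) and Ex (orange), with filled and open circles for replicates 1 and 2 and lines for means. Both Ex libraries lie below both Sed libraries at every region.

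The 2 lists for the Pgc1a transgene held none of these genes. The 9 genes had 35 merged Wt and mTg regions, none of them in the list of higher or of lower acetylation, beside 3.27% and 1.51% of all 55876. The T-box genes of the limb thus appeared in none of the 4 differential lists, including Tbx5, whose share of listed signal was 2.00-fold higher in Ex than in Sed.

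Other assays seldom overlapped these regions. In Quad, 8 of 29 H3K27ac peaks (27.6%) and 8 of 47 H3K4me2 peaks (17.0%) of the 9 genes overlapped a control Quad ATAC peak, beside 57.2% and 52.7% of all peaks. Their median widths were 1.22 kb, beside 1.55 kb for all H3K27ac peaks, and 1.36 kb, beside 1.32 kb for H3K4me2. In all, 13 of 44911 ATAC peaks lay in a peak of these genes, of which 4 were at Pitx1, 3 at Meis1, 3 at Lbx1, and 1 each at Pitx3, Tbx3 and Tbx4. None lay at Tbx5, Pax3 or Pax7. The strongest was at the Tbx3 promoter, with 28.5 normalized tags, the 97.0th percentile.

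The E-box CAGCTG occurred in 4 of the 13 sites, beside 21.1% of all ATAC peaks, and the T-box half-site AGGTGT in 1, at Tbx3, beside 7.30%. The PITX site TAATCC and the MEIS site TGACAG, searched on both strands like the others, occurred in none, beside 4.70% and 16.2%. A match to such short letters is a description and not a bound site.

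MED1, a Mediator subunit found at active enhancers, was profiled with 1 library per muscle. No H3K27ac peak of these genes overlapped a MED1 peak in Dia (of 22), EDL (of 18), Quad (of 29) or Sol (of 17), beside 4.16%, 1.12%, 3.76% and 5.34% of all H3K27ac peaks. The lists held 834 to 4070 MED1 peaks, and 3 of them were assigned to these genes outside H3K27ac peaks, at Pax3 in EDL and in Quad and at Pitx1 in Sol.

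The 30 other genes of limb patterning, migrating precursors and the diaphragm primordium were counted in the same way. They were listed by role, some for the diaphragm itself, and so are no neutral background for Dia against limb. In H3K27ac, 25 had a peak in Dia and 23 in at least 1 of EDL, Quad and Sol. Only 1, Irx5, had peaks in a limb muscle (EDL and Quad) and not in Dia, beside 16.0% of the 15880 genes, and 3 had them in Dia only, namely Isl1, Gata4 and Wt1, beside 2.88%. By share, 7 were higher in Dia (Tbx1, Meis2, Isl1, Shox2, Gata4, Wt1 and Zfpm2), beside 9.0% of all genes, 2 lower (Tbx18 and Emx2), beside 7.42%, 17 not called and 4 without peaks. In H3K4me2 all 30 had peaks in Dia and in the 3 limb muscles, where 11.1% of all genes had them in a limb muscle and not in Dia and 1.22% in Dia only, and 3 were higher in Dia (Meis2, Gata4 and Wt1) and none lower, beside 3.94% and 5.18%.

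The 5 with the largest differences in peak number over both marks were Meis2, Irx3, Alx4, Gata4 and Zfpm2. Meis2, the paralog of Meis1, had 5 H3K27ac peaks in Dia, 2 in Quad and none in EDL or Sol, with shares of 32.8 and 35.5 in Dia and 0.457 and 0.446 in Quad. Gata4, a factor of the heart and the diaphragm's connective tissue, had 4.05 and 3.46 in Dia and no H3K27ac peak in any other group, and its partner Zfpm2 had 4.71 and 4.46 in Dia and at most 2.45 in a limb library. Irx3 and Alx4, genes of limb patterning, had more peaks in the limb muscles. Irx3 had 5 H3K27ac peaks in Dia and 8 to 10 in the limb muscles, and Alx4 had 1 against 2 to 6. Their shares overlapped, with Irx3 at 9.91 and 12.6 in Dia and 10.8 to 19.8 in the limb, and Alx4 at 0.433 and 0.286 in Dia and 0.399 to 3.99.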

How the data were processed

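H3K27ac and H3K4me2 ChIP-seq was performed on whole muscle with 2 libraries per group and input chromatin as background. The authors aligned reads to mm10 with Bowtie and called peaks over both replicates of a group with HOMER and DESeq2, against input. The deposited tag levels of a peak are log2 values, normalized by the authors within each list and taken here as regularized log2 tag counts. Depths are the totals in the file headers. The deposited peak score and the adjusted p-value and log2 fold over input, from the authors' calls, served as alternative thresholds only. The 4 differential H3K27ac lists hold log2 levels of both conditions, normalized together, for regions that the authors had selected. ATAC-seq signal, given by the authors as normalized tag counts pooled over 3 control Quad samples, and MED1 peak scores, from 1 library per muscle against input, came as deposited peak lists. A further 18 columns of per-sample values and the authors' fold changes and p-values between groups were not used.

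Peaks took the gene of the deposited annotation. The share of listed signal was the sum of 2 to the power of the log2 level over a gene's peaks, per 100000 of the list's sum. Levels per kb were log2 levels minus log2 of the width, centred on the library's median over regions listed singly in all 8 groups (7790 for H3K27ac and 12759 for H3K4me2), or over the matched regions of a pair. limma 3.58.1 (R 4.3.3) was fitted across all regions of each differential list, two-sided, with Benjamini-Hochberg adjustment and a threshold of 0.05, and was checked on simulated data. All reported adjusted p are from limma. Gene coordinates and sequences came from RefSeq and the genome of GRCm38.p6, which is mm10, and promoters matched for 4 of the 9 genes were not printed. Named genes were all 9 genes, the 5 other limb genes with the largest difference in peak number, and the 3 genes most like Tbx5 and Pitx1 (the latter are not reported here). Lists of 30 other genes and 8 sets of cell type markers were fixed by name.

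The genes and lists were chosen with earlier results of these data known, and the comparison of shares was added after the lists were seen. Replicates came from separate animals or pools. Alternatives were stricter peak thresholds, equal numbers of peaks, other overlaps and scalings, leaving out each replicate, and a replicate block.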

Additional observations from a re-analysis of the deposited data

How the results depend on the processing

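Of 115 alternative values, 88 kept their side of the rule (counts within 1.5 times) and 27 moved. Some of the 88 could not have moved and say nothing on stability. The Pgc1a lists hold 0 regions of these genes, and the MED1 alternatives only narrowed an overlap of 0. Peak thresholds moved counts most. With an adjusted p-value under 0.001 the 9 genes kept 13 H3K27ac peaks in Dia, 25 in EDL, Quad and Sol and 29 in the other Quad groups, against 22, 64 and 98, and 22, 71 and 75 H3K4me2 peaks against 38, 116 and 144. Limb regions without Dia then numbered 0 for H3K27ac. Dia regions without limb rose from 4 to 6 for H3K27ac and fell from 8 to 1 for H3K4me2. Regions over 2-fold apart were 0 for H3K27ac and 1 for H3K4me2. Fewer peaks were left to compare, and the cause of these shifts was not tested. At 4-fold over input, limb H3K27ac regions without Dia were 0. Equal numbers of peaks per list left 74 limb H3K4me2 peaks and 0 limb H3K4me2 regions without Dia. Requiring overlap with 0.5 of a region gave 7 Dia H3K27ac regions and 1 limb H3K4me2 region. With 7 limb groups, chosen after seeing the data, limb regions without Dia were 0 for both marks and Dia H3K27ac regions 2.

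Regions over 2-fold apart, 3 for H3K27ac and 2 for H3K4me2, became 1 and 0 at a reciprocal overlap of 80%, 5 and 10 when not divided by width, and 7 and 5 when merged over the pair. The cause was not tested. Leaving out replicates gave 2 to 4 and 2 to 3. Genes called by share ranged from 3 to 4 for H3K27ac and stayed at 2 for H3K4me2, the 4 under the stricter p-value being Tbx3, Meis1, Pax3 and Pax7. The top-scoring 0.5 of ATAC peaks overlapped 5 H3K27ac and 5 H3K4me2 peaks in Quad, where fewer peaks were searched.

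Exercise regions passing in limma ranged from 2 to 6 without 1 replicate, with the lone sample assumed to vary like the others. With the replicate block 6 passed, as without it. The Pgc1a lists held 0 regions of these genes, so their count had to stay at 0 under every setting, crossed numbers included. Same-numbered deviations correlated at 0.106 and 0.144 in the exercise lists and -0.039 and -0.242 in the Pgc1a lists, over 2 pairs only, so the numbers were not taken as pairs. Peaks under the listing threshold limit every statement on an unlisted gene.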

Other observations

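Of the 3 MED1 peaks assigned to these genes, those at Pax3 lay at chr1:77954144-77954356 in EDL (peak score 6.61) and chr1:78159473-78159683 in Quad (7.03), and that at Pitx1 at chr13:55901464-55901674 in Sol (5.26). Each came from 1 library. Mesothelial markers, at 0.676 to 1.41 in the sedentary limb groups, summed to 4.24 and 5.84 in Ex, with 2 of 4 genes listed. Meis2 had H3K27ac shares of 4.09 and 4.72 in Ex and 0.569 and 0.896 in Sed, while Meis1 stood at 15.2 and 15.9 in Ex and 14.5 and 16.6 in Sed.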
